A study of Caenorhabditis elegans with 20 samples.

Results

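Soluble guanylate cyclases are cytosolic haem enzymes that make the second messenger cGMP from GTP. The conventional ones of mammals sense nitric oxide, whereas the atypical ones of worms act as oxygen sensors. *C. elegans* has 7 genes for them, gcy-31 to gcy-37, and all 7 were taken by their symbol from the 29317 probe sets of the array. Each was measured by 1 probe set annotated to that gene alone, out of 25546 probe sets with a single gene symbol. From the literature, gcy-32, gcy-34, gcy-35, gcy-36 and gcy-37 are expressed in the oxygen-sensing neurons URX, AQR and PQR, where GCY-35 and GCY-36 signal a rise in oxygen. GCY-31 and GCY-33 belong to the BAG neurons and signal a fall in oxygen. In these cells cGMP opens the TAX-2/TAX-4 channel. AHR-1, the worm homologue of the aryl hydrocarbon receptor, works as a dimer with AHA-1 and is known as a regulator of soluble guanylate cyclase genes in URX, AQR and PQR.

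The arrays compared 4 groups of worms, collected on day 3 after growth from the egg on the test plates. These were ahr-1(ju145) mutants (strain CZ2485) on 100 µM curcumin, ahr-1(ju145) mutants on 0.1% DMSO, wild-type N2 worms on 100 µM curcumin, and wild-type N2 worms on 0.1% DMSO. Each group had 5 arrays of independent replicates. The ahr-1(ju145) curcumin array of replicate 5 did not enter the fit, because its quality measures had excluded it from the original work, and 19 of 20 arrays remained. The comparisons ask whether the soluble guanylate cyclase genes depend on ahr-1 and whether curcumin, a plant polyphenol, alters them with or without a working AHR-1. The ju145 mutation is present in the whole animal. Total RNA came from whole worms, so fewer neurons of a type and less RNA per neuron cannot be told apart.

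The unit throughout is the log2 RMA value, in which a difference of 1 is a doubling. Over all probe sets these values ran between 1.52 and 14.3 with a median of 4.26, and the 7 genes lay between 2.65 and 4.33 on the 20 arrays. Values of different probe sets depend on their probes and do not rank genes by their amount of RNA. They are set against each other here only to place the 7 genes within the array and to pick probe sets of like level. A low value holds a share of unspecific signal, which can shrink log2 differences. The files used here give no detection call, so it is not known which of the 7 genes rose above background. The means of gcy-32, gcy-33 and gcy-36 lay below the 25th percentile of all probe sets, at 3.22, and those of the other 4 lay above it.

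Of the soluble guanylate cyclase genes, 0 of 7 passed an adjusted p of 0.1 in any of 6 comparisons between genotypes or treatments. Among all probe sets, 1.81% passed between ahr-1(ju145) and wild-type under DMSO, 0.553% under curcumin, and 4.91% with both treatments averaged. Between curcumin and DMSO, 0.0648% passed in ahr-1(ju145) and 0.143% in wild-type. For the interaction, the difference between both curcumin effects, 0% passed, with 985 probe sets (3.36%) at an unadjusted p under 0.05 and no soluble guanylate cyclase gene among them. At such rates a list of 7 genes would hold few or no calls, so these counts do not set the 7 genes apart from the rest of the array. Of the 42 tests of the 7 genes, 2 had an unadjusted p under 0.05, and both were for gcy-36 in ahr-1(ju145) against wild-type. They were under DMSO, where 11.2% of all probe sets had such a p, and with treatments averaged, where 15.3% had. The averaged comparison contains the DMSO one, so these 2 tests are not separate. All tests were limma's moderated test, two-sided, with Benjamini-Hochberg adjustment over all probe sets.

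**Figure D1:**
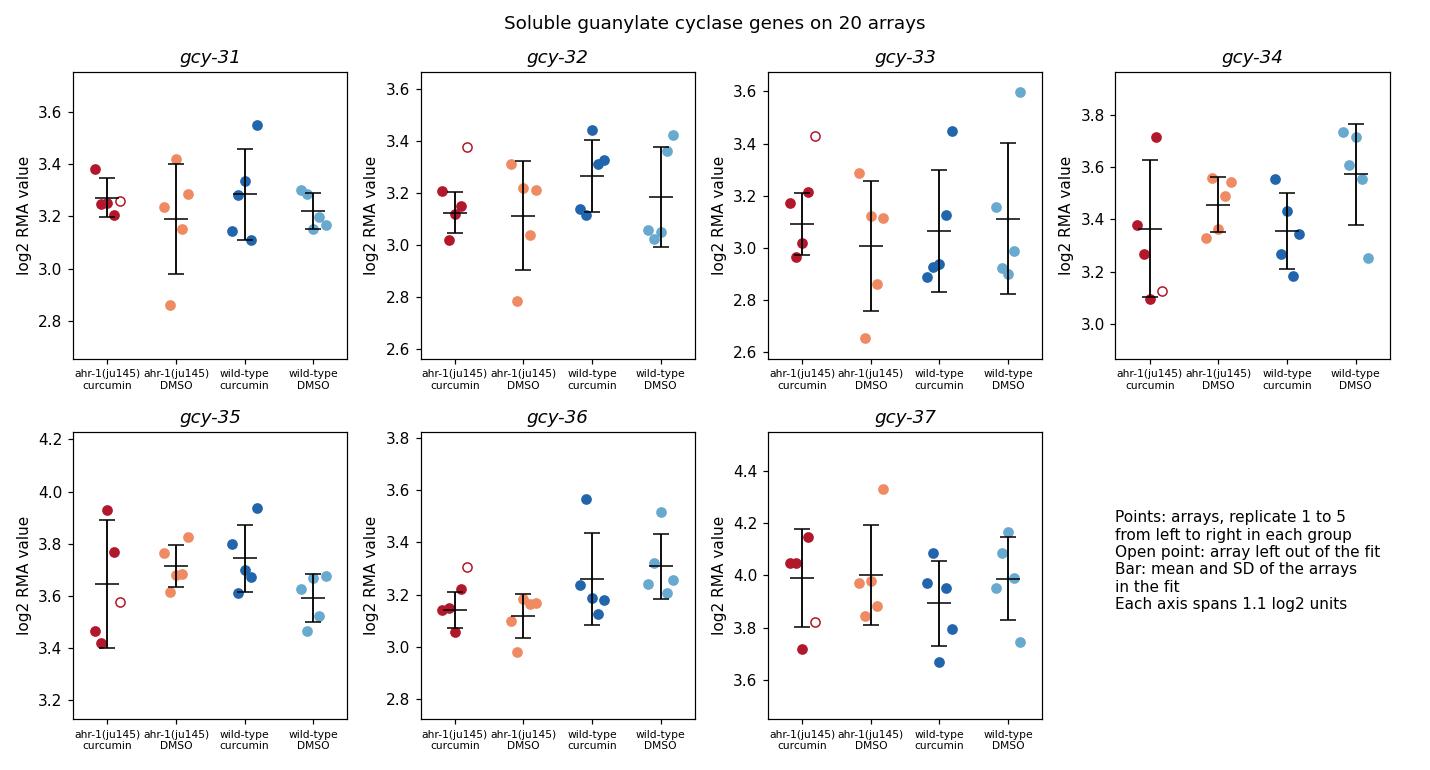
Log2 RMA value of each soluble guanylate cyclase gene on every array, by group, with bars for the mean and SD of the arrays in the fit and an open point for the array left out. Only for gcy-36 do the ahr-1(ju145) DMSO arrays (2.98 to 3.18) all lie below the wild-type DMSO arrays (3.21 to 3.52), and every other pair of groups compared overlaps.

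The transcripts of the regulator and its partner were measured in the same samples. The ahr-1 probe set had values of 4.67, 4.29, 4.89 and 4.44 in ahr-1(ju145) on curcumin, against 4.86, 5.17, 4.88, 5.11 and 5.00 in wild-type on curcumin. Under DMSO it had 4.94, 4.27, 4.90, 4.85 and 4.98 in ahr-1(ju145), against 5.20, 4.92, 5.11, 4.96 and 5.45 in wild-type. The mutant arrays were mostly but not wholly below the wild-type arrays in both treatments. With treatments averaged, the ahr-1 transcript fell by 0.38 (SE 0.10, adjusted p = 0.0443), where 4.91% of all probe sets passed. This call held with each of the 19 arrays left out in turn. The single comparisons did not pass, at -0.34 (SE 0.14, adjusted p = 0.350) under DMSO and -0.43 (SE 0.15, adjusted p = 0.307) under curcumin. ahr-1(ju145) DMSO replicate 2 lay far below the rest of its group, and without it the DMSO difference was -0.21 (SE 0.12, adjusted p = 0.579) and the averaged one -0.32 (adjusted p = 0.0520). The place of the ju145 lesion relative to these probes was not known here, so the transcript level does not check the genotype.

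The dimer partner aha-1, the worm ARNT, had 7.02, 6.92, 6.93, 7.02 and 6.91 in ahr-1(ju145) under DMSO, against 7.37, 7.22, 7.09, 7.30 and 7.38 in wild-type. These groups did not overlap, as for 3.11% of all probe sets in this comparison. aha-1 fell by 0.31 (SE 0.08, adjusted p = 0.0796), where 1.81% of all probe sets passed. The call held in 11 of 19 fits that each left out 1 array, with differences between -0.36 and -0.29 over all 19. It was lost on leaving out replicate 1, 2, 3 or 5 of the mutant on DMSO, or any wild-type array on DMSO except replicate 3, with adjusted p up to 0.206. Under curcumin the difference was -0.09 (SE 0.09, adjusted p = 0.840), and the interaction was 0.23 (unadjusted p = 0.0707). With treatments averaged, where 4.91% of all probe sets passed, the aha-1 difference was -0.20 (SE 0.06, adjusted p = 0.0769). This call held in 7 of 19 fits that each left out 1 array.

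gcy-36, needed in URX, AQR and PQR for avoiding high oxygen, had the lowest unadjusted p of the 7 genes between genotypes. It had 3.10, 2.98, 3.18, 3.17 and 3.17 in ahr-1(ju145) under DMSO, against 3.24, 3.32, 3.52, 3.21 and 3.26 in wild-type. All 5 mutant arrays lay below all 5 wild-type arrays. Over all 29317 probe sets, 537 were below without overlap in this comparison and 374 above, 3.11% together. The difference was -0.19 (SE 0.08, 95% interval -0.36 to -0.02, unadjusted p = 0.0326, adjusted p = 0.383), and 5.64% of all probe sets were lower at an unadjusted p under 0.05.

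Under curcumin gcy-36 had 3.14, 3.15, 3.05 and 3.22 in ahr-1(ju145), against 3.24, 3.57, 3.19, 3.13 and 3.18 in wild-type. The groups overlapped, and the difference was -0.12 (SE 0.09, adjusted p = 0.770). Averaged over treatments it was -0.15 (SE 0.06, 95% interval -0.28 to -0.03, unadjusted p = 0.0192, adjusted p = 0.205), where 7.32% of all probe sets were lower at an unadjusted p under 0.05. The replicate numbers paired the ahr-1(ju145) and wild-type DMSO arrays, and with the replicate block the DMSO difference of gcy-36 was -0.19 (SE 0.09, unadjusted p = 0.0481, adjusted p = 0.363). Over all settings tried, the adjusted p for the DMSO comparison ran between 0.2495 and 0.598. Without wild-type DMSO replicate 3, its highest array in that group, the difference was -0.14. Curcumin minus DMSO was 0.02 (SE 0.09) in ahr-1(ju145) and -0.05 (SE 0.08) in wild-type.

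gcy-35, whose product pairs with GCY-36, lay on the other side of 0 under DMSO. It had 3.77, 3.62, 3.68, 3.68 and 3.83 in ahr-1(ju145), against 3.63, 3.47, 3.67, 3.52 and 3.68 in wild-type. In this comparison 4 of 5 mutant arrays were above all 5 wild-type arrays, and the difference was 0.12 (SE 0.09, 95% interval -0.07 to 0.32, adjusted p = 0.687). Under curcumin the values were 3.47, 3.42, 3.93 and 3.77 in ahr-1(ju145), against 3.80, 3.61, 3.70, 3.67 and 3.94 in wild-type. The mutant arrays on curcumin fell into a low pair and a high pair, and their difference from wild-type was -0.10 (SE 0.10, adjusted p = 0.841). Curcumin minus DMSO was -0.07 (SE 0.10, adjusted p = 0.939) in ahr-1(ju145) and 0.15 (SE 0.09, adjusted p = 0.854) in wild-type. The interaction was -0.22 (SE 0.13, 95% interval -0.50 to 0.06, unadjusted p = 0.114, adjusted p = 1.00), with the lowest unadjusted p of the 7 genes. In RefSeq's annotation of the WBcel235 assembly, gcy-35 is a neighbour of pde-1, a phosphodiesterase gene that was not called either.

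gcy-34, another gene of URX, AQR and PQR, had the lowest unadjusted p for curcumin. In wild-type it had 3.55, 3.27, 3.43, 3.18 and 3.35 on curcumin, against 3.74, 3.61, 3.71, 3.55 and 3.25 on DMSO. The curcumin arrays were mostly lower, but the groups overlapped, with DMSO replicate 5 low and curcumin replicate 1 level with DMSO replicate 4. The difference was -0.22 (SE 0.11, 95% interval -0.45 to 0.02, unadjusted p = 0.0664, adjusted p = 0.789). In ahr-1(ju145) gcy-34 had 3.38, 3.27, 3.10 and 3.72 on curcumin, against 3.33, 3.56, 3.36, 3.49 and 3.55 on DMSO. The difference there was -0.09 (SE 0.12, adjusted p = 0.932), and the interaction was 0.12 (SE 0.16, unadjusted p = 0.451). Between ahr-1(ju145) and wild-type, gcy-34 differed by -0.12 (SE 0.11, adjusted p = 0.780) under DMSO and by 0.01 (SE 0.12, adjusted p = 0.993) under curcumin.

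gcy-32, also of URX, AQR and PQR, had 3.31, 2.79, 3.22, 3.04 and 3.21 in ahr-1(ju145) under DMSO, against 3.06, 3.02, 3.05, 3.36 and 3.42 in wild-type. On curcumin it had 3.21, 3.02, 3.12 and 3.15 in ahr-1(ju145), against 3.14, 3.12, 3.44, 3.31 and 3.33 in wild-type. The groups overlapped in both treatments. The differences were -0.07 (SE 0.10, adjusted p = 0.881) under DMSO and -0.14 (SE 0.11, adjusted p = 0.778) under curcumin. Curcumin minus DMSO was 0.01 (SE 0.11) in ahr-1(ju145) and 0.08 (SE 0.10) in wild-type.

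gcy-37, the remaining gene of these neurons, had 3.97, 3.84, 3.98, 3.88 and 4.33 in ahr-1(ju145) under DMSO, against 3.95, 4.09, 4.17, 3.99 and 3.74 in wild-type. On curcumin it had 4.05, 4.05, 3.72 and 4.15 in ahr-1(ju145), against 3.97, 4.08, 3.67, 3.95 and 3.79 in wild-type. The groups overlapped in both treatments, and 1 mutant DMSO array was high. The differences were 0.01 (SE 0.11, adjusted p = 0.984) under DMSO and 0.10 (SE 0.12, adjusted p = 0.878) under curcumin. Curcumin minus DMSO was -0.01 (SE 0.12) in ahr-1(ju145) and -0.09 (SE 0.11) in wild-type.

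The BAG genes were also without a call. gcy-31 had 3.24, 2.86, 3.42, 3.15 and 3.28 in ahr-1(ju145) under DMSO, against 3.30, 3.29, 3.15, 3.20 and 3.17 in wild-type. On curcumin it had 3.38, 3.25, 3.25 and 3.21 in ahr-1(ju145), against 3.15, 3.28, 3.34, 3.11 and 3.55 in wild-type. Mutant arrays lay on both sides of the wild-type ones under DMSO and within their range on curcumin. The differences were -0.03 (SE 0.09, adjusted p = 0.957) under DMSO and -0.01 (SE 0.10, adjusted p = 0.987) under curcumin. Curcumin minus DMSO was 0.08 (SE 0.10) in ahr-1(ju145) and 0.06 (SE 0.09) in wild-type.

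gcy-33, the other BAG gene, had 3.29, 2.65, 3.12, 2.86 and 3.11 in ahr-1(ju145) under DMSO, against 3.16, 2.92, 2.90, 2.99 and 3.60 in wild-type. On curcumin it had 3.17, 2.96, 3.02 and 3.21 in ahr-1(ju145), against 2.89, 2.93, 2.94, 3.13 and 3.45 in wild-type. It varied most within groups, with an SD of 0.237 against 0.123 for gcy-36 and a median of 0.177 over all probe sets. The differences were -0.11 (SE 0.14, adjusted p = 0.865) under DMSO and 0.03 (SE 0.15, adjusted p = 0.981) under curcumin. Curcumin minus DMSO was 0.08 (SE 0.15) in ahr-1(ju145) and -0.05 (SE 0.14) in wild-type.

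**Figure D2:**
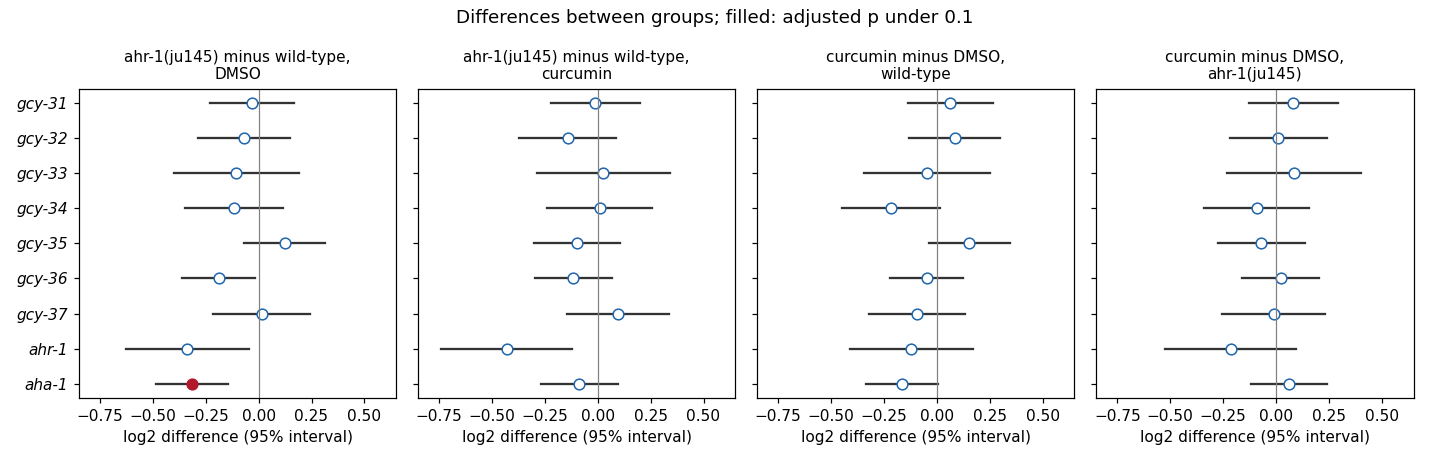
Fitted log2 difference with its 95% interval for the 7 soluble guanylate cyclase genes, ahr-1 and aha-1, as ahr-1(ju145) minus wild-type in each treatment and as curcumin minus DMSO in each genotype. The interval of gcy-36 under DMSO (-0.36 to -0.02) is the only one of the 7 genes that leaves out 0, and only aha-1 under DMSO passes an adjusted p of 0.1.

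Read over the 7 genes, ahr-1(ju145) minus wild-type had a median of -0.07 under DMSO, against 0.02 over all probe sets. Of the 7 genes 5 lay below 0, against 44.7% of all probe sets. Under curcumin the median was -0.01, against 0.01 over all probe sets, and 4 of 7 lay below 0. The 95% intervals of the 7 genes for this difference ran between -0.40 and 0.32 under DMSO, between -0.37 and 0.34 under curcumin, and between -0.28 and 0.22 with treatments averaged. The log2 RMA scale may compress differences of weak probe sets. Curcumin minus DMSO had medians of 0.01 in ahr-1(ju145) and -0.05 in wild-type, and its intervals ran between -0.34 and 0.40 in ahr-1(ju145) and between -0.45 and 0.34 in wild-type.

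The order of the 4 group means was not shared among the genes. gcy-36 and gcy-32 had both ahr-1(ju145) groups lowest, and gcy-37 had both highest. For gcy-36 the group means were 3.14 ± 0.07 (SD, n = 4) in ahr-1(ju145) on curcumin, 3.12 ± 0.08 in ahr-1(ju145) on DMSO, 3.26 ± 0.18 in wild-type on curcumin, and 3.31 ± 0.12 in wild-type on DMSO (SD, n = 5 each). The highest and lowest group means of a gene lay between 0.09 (gcy-31) and 0.22 (gcy-34) apart. Neighbours in each order differed by at most 0.12, less than the larger of their 2 SDs, so no neighbouring groups separated beyond their spread for any gene.

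Single arrays carried part of the differences under DMSO. ahr-1(ju145) DMSO replicate 2 was the lowest of its group for 6 of 7 genes, gcy-34 being the exception. Its median deviation from the group mean over the 7 genes was -0.16. Over the 7354 probe sets whose means lay in the same range (3.07 to 3.97) the median deviation of this array was -0.03, with 57.2% of them below the group mean. Without it, the ahr-1(ju145) minus wild-type differences under DMSO were 0.05 for gcy-31, 0.01 for gcy-32, -0.02 for gcy-33 and -0.15 for gcy-36 (adjusted p = 0.560). The values of gcy-31 and gcy-32 thus changed sign without this array, and that of gcy-36 kept its sign. Wild-type DMSO replicate 5 was the lowest of its group for 2 genes and the highest for 3. Without it, the difference under DMSO was 0.02 for gcy-33, which changed sign, and -0.20 for gcy-34. What sets these arrays apart for these genes was not tested.

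**Figure D3:**
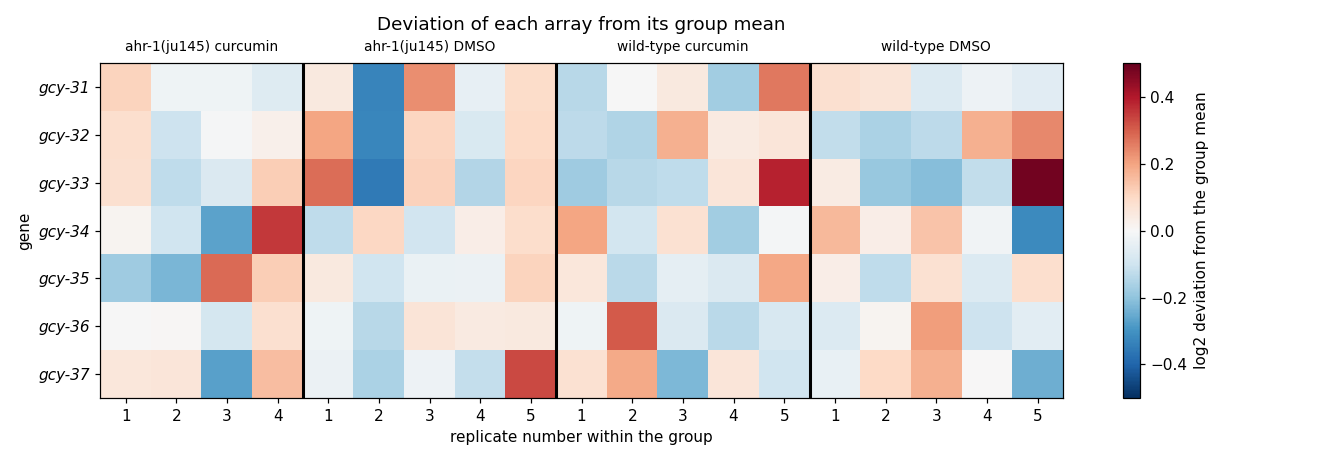
Deviation of every array in the fit from its group mean, in log2 units, for each of the 7 genes, with replicates numbered within groups. ahr-1(ju145) DMSO replicate 2 is below its group mean for 6 of 7 genes, while wild-type replicate 5 is high for gcy-33 in both treatments.

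After removal of the group means, the 7 genes did not vary together as 1 block over the 19 arrays. Of the 21 pairs, gcy-32 and gcy-33 had the highest Pearson r, at 0.71 (Spearman 0.78), or 0.55 without the 2 arrays farthest out. gcy-36 and gcy-37 followed at 0.60 (Spearman 0.65), or 0.52 without such arrays. gcy-35 and gcy-36 had an r of -0.12, and gcy-32 and gcy-34 one of -0.38. These are descriptions, and the arrays share their normalisation. The first pair joins a gene of URX, AQR and PQR with a gene of BAG, and the other joins genes of the same neurons.

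For each gene the 2 other genes with the most similar deviations over the 19 arrays were listed. For gcy-31 they were srg-57 (Pearson r = 0.845) and F35C5.4 (0.822), and for gcy-32 they were F55C5.14 (0.793) and C25F6.8 (0.785). For gcy-33 they were grd-12 (0.8800) and C02F4.10 (0.849), and for gcy-34 they were H22K11.8 (0.828) and Y54G2A.10 (0.802). For gcy-35 they were mtx-1 (0.879), a mitochondrial import gene, and pigw-1 (0.861). For gcy-36 they were C30H6.5 (0.883) and B0403.5 (0.842), and for gcy-37 they were F28C10.4 (0.815) and W05E10.8 (0.802). No gene of the guanylate cyclase family was among them. They were picked as the highest of all probe sets with a single gene symbol, so a high r over 19 arrays is what the choice itself gives.

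Genes used as markers of the cells gave no call either. Whether each is confined to these cells was not tested, and RNA of whole worms holds their transcripts from any other cells too. Of 5 genes used as URX, AQR and PQR markers, 0 passed. Between genotypes, 1.81% of all probe sets passed under DMSO and 0.553% under curcumin. At such rates 5 genes would hold few or no calls, so this count does not set them apart. flp-8, a neuropeptide gene of URX, had 3.23, 3.35, 3.41, 3.04 and 3.21 in ahr-1(ju145) under DMSO, against 3.46, 3.71, 3.62, 3.47 and 3.31 in wild-type. The mutant arrays were low but overlapped the lowest wild-type array, and the difference was -0.26 (SE 0.10, unadjusted p = 0.0138, adjusted p = 0.268). Under curcumin it was -0.14 (adjusted p = 0.762). flp-10, another neuropeptide gene, was at -0.15 (adjusted p = 0.759) under DMSO and -0.15 (adjusted p = 0.830) under curcumin. egl-13, a SoxD factor that specifies URX and BAG, was at -0.16 under both DMSO (adjusted p = 0.556) and curcumin (adjusted p = 0.697).

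The remaining markers of this set tune oxygen behaviour. npr-1, a neuropeptide receptor, was at 0.09 (adjusted p = 0.882) under DMSO and -0.15 (adjusted p = 0.833) under curcumin. glb-5, a globin that adjusts the oxygen response of URX, had 3.19, 3.44, 3.52 and 3.43 in ahr-1(ju145) on curcumin, against 2.91, 3.02, 2.88, 3.01 and 3.18 in wild-type. The 4 mutant arrays were all higher, and the difference was 0.40 (SE 0.10, adjusted p = 0.139). Without overlap in this comparison were 3.14% of all probe sets. Under DMSO glb-5 was at 0.02 (SE 0.10), and its interaction was 0.37 (unadjusted p = 0.0185, adjusted p = 1.00).

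Of 5 genes used as BAG markers, among them egl-13, 0 passed. The same shares over all probe sets, 1.81% and 0.553%, apply here. gcy-9, the receptor-type cyclase that serves as a carbon dioxide receptor in BAG, was at 0.07 (adjusted p = 0.888) under DMSO and 0.20 (adjusted p = 0.638) under curcumin. flp-17 was at -0.04 and 0.14 in these comparisons, ets-5, the ETS factor of BAG, at 0.00 and -0.12, and flp-11 at 0.17 and 0.08. Pan-neuronal markers had 0 of 16 calls and a median of -0.00 under DMSO. Their mean level per array ran between 7.18 and 7.29 in ahr-1(ju145) and between 7.19 and 7.31 in wild-type under DMSO. The ranges of both genotypes overlapped. Elsewhere in the DMSO comparison, where 1.81% of all probe sets passed, 1 of 7 hypodermis markers was called lower. Of 16 early embryo markers 1 was called higher and 1 lower. Counts of calls this small do not show a tissue difference. By sign under DMSO, 11 of 11 germline and oocyte markers lay above 0 (median 0.05), as did 6 of 7 body muscle markers. Above 0 were also 5 of 7 intestine and 8 of 16 early embryo markers, while 6 of 7 hypodermis markers lay below 0 (median -0.15). Over all probe sets 44.7% lay below 0. The part of tissue make-up in the values above was not tested.

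The genes around the soluble cyclases were 78 genes in 4 lists, and of these only glb-17 passed in any comparison. It passed under curcumin and with treatments averaged, where 0.553% and 4.91% of all probe sets passed. Among 27 receptor-type guanylate cyclases, membrane proteins of sensory neurons, 0 passed, with a median of 0.07 under DMSO. The 2 with the lowest p there were gcy-4, at 0.25 (SE 0.08, unadjusted p = 0.00906, adjusted p = 0.224), and gcy-2, at -0.21 (SE 0.11, adjusted p = 0.485). Among 11 genes of cGMP channels, kinases and phosphodiesterases, 0 passed. cng-3, a channel subunit, was at 0.25 (SE 0.12, adjusted p = 0.474) and egl-4, the cGMP-dependent kinase, at 0.05 (SE 0.06, adjusted p = 0.827). Of 8 measured genes of oxygen behaviour and hypoxia, out of 10 listed, 0 passed, with flp-18 at 0.22 (adjusted p = 0.504) and osm-9, a TRPV channel gene, at -0.11 (adjusted p = 0.834).

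Globins bind oxygen as well, and 1 of 33 was called. Beside the shares of 0.553% and 4.91% over all probe sets, this count does not set the globins apart. glb-17 had 4.65, 4.48, 4.72 and 4.49 in ahr-1(ju145) on curcumin, against 4.08, 4.20, 4.14, 4.31 and 3.56 in wild-type. Under DMSO it had 4.79, 4.50, 4.40, 4.47 and 4.40 in ahr-1(ju145), against 4.09, 4.18, 4.12, 4.00 and 4.32 in wild-type. No mutant array overlapped the wild-type ones in either treatment. Of all probe sets, 3.11% were without overlap under DMSO and 3.14% under curcumin. glb-17 was higher in ahr-1(ju145) by 0.53 under curcumin (SE 0.12, adjusted p = 0.0872) and by 0.45 with treatments averaged (SE 0.08, adjusted p = 0.00546). Under DMSO the difference was 0.37 (SE 0.12, adjusted p = 0.168). The averaged call held with each of the 19 arrays left out in turn. The call under curcumin held in 7 of these 19 fits, with differences between 0.40 and 0.59 over all 19. It was lost (adjusted p up to 0.256) without any 1 ahr-1(ju145) curcumin array, ahr-1(ju145) DMSO replicate 2, 3 or 4, wild-type curcumin replicate 1, 2 or 5, or wild-type DMSO replicate 2 or 3.

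**Figure D4:**
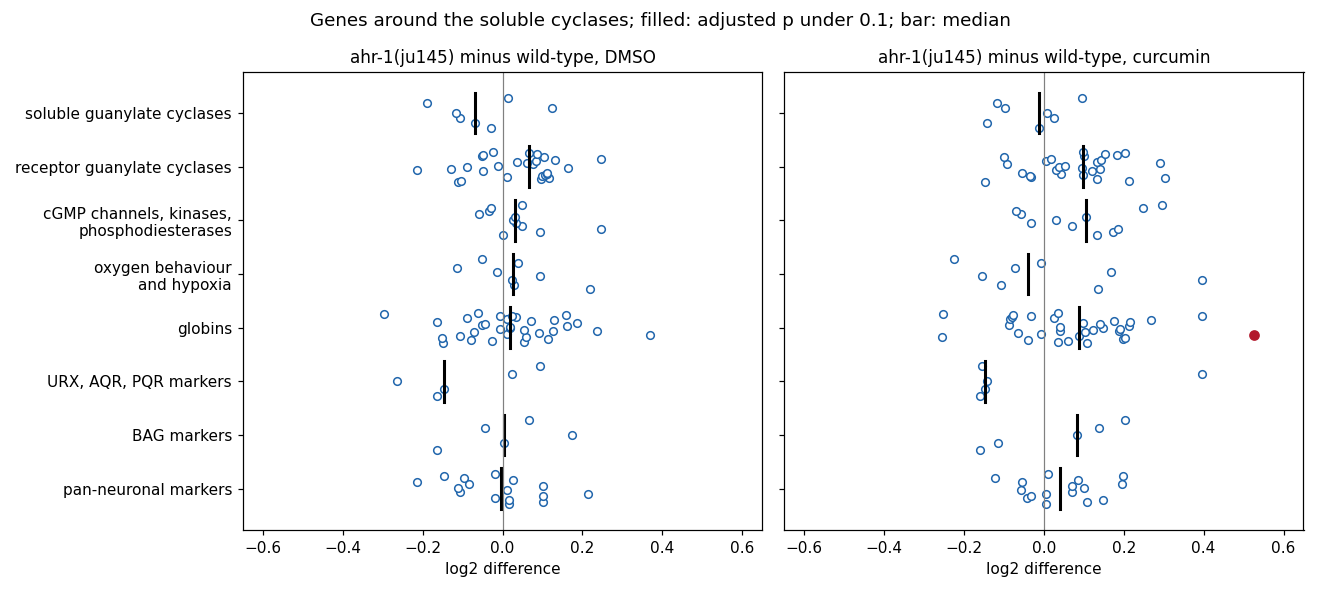
Log2 difference of ahr-1(ju145) minus wild-type under DMSO and under curcumin for each gene of the 4 related lists, of the neuron markers and of the soluble guanylate cyclases, with a bar at each list's median. The medians of the soluble guanylate cyclases are -0.07 under DMSO and -0.01 under curcumin, and glb-17 under curcumin (0.53) is the single call.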

How the data were processed

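RNA of whole worms was hybridised to Affymetrix C. elegans Gene 1.0 ST arrays. The authors corrected background, normalised and summarised the scans by RMA in the oligo package and deposited log2 values per probe set; 3 deposited tables of their own comparisons (fold changes, mean expression, test statistics and p-values) were not used. Probe sets were named from the platform annotation (25546 with 1 symbol, 646 with several, 3125 with none). Neither sequences nor coordinates were used.

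A limma (3.58.1, R 4.3.3) model with a mean per group was fitted to 29317 probe sets on 19 arrays, with eBayes and Benjamini-Hochberg adjustment within each comparison, and an adjusted p under 0.1 was a call. The script was tested on simulated data. The 7 genes and all lists were chosen with earlier results of these data known. Named from the lists were the called genes, otherwise the 2 with the lowest p under DMSO, every URX, AQR, PQR and BAG marker, and the 2 most correlated probe sets per gene. The number of arrays (4 or 5 per group) limits the precision.

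Equal replicate numbers in the labels were checked for pairing. Between the ahr-1(ju145) and wild-type DMSO groups, same-numbered arrays deviated together in all 5 pairs (r between 0.114 and 0.431), so they were taken as paired. In the other comparisons every same-numbered r was above 0 as well. The lowest was 0.0843 between genotypes under curcumin, 0.0644 for curcumin in wild-type and 0.0575 for curcumin in ahr-1(ju145). The mean r there was 0.162, 0.247 and 0.127, against -0.0402, -0.0616 and -0.0313 for arrays of unlike number. ahr-1(ju145) arrays deviated most like the wild-type array of their own number in 5 of 5 cases under DMSO and 4 of 4 under curcumin. Curcumin arrays did so with the DMSO array of their own number in 3 of 5 cases in wild-type and 3 of 4 in ahr-1(ju145). These other comparisons were not taken as paired, but the values do not exclude pairing. Unless the replicate block is named, all values given come from the fit without it, also under DMSO. The alternatives tried were all 20 arrays, the compared groups alone, the replicate block, array weights, quantile normalisation, median centring, a trended and robust prior, a filter on dim probe sets, single-symbol probe sets, a threshold of 0.05, and leaving out each array in turn. Leaving out each array for ahr-1, aha-1 and glb-17 was chosen after seeing the data.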

Additional observations from a re-analysis of the deposited data

Results flagged for a closer look

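In 28 sets of 4 or 5 arrays (7 genes in 4 groups), 2 held an array far from the rest of its group, where chance alone gives about 1 in 20. gcy-37 was 4.33 in ahr-1(ju145) DMSO replicate 5, and the nearest array of that group was at 3.98. gcy-36 was 3.57 in wild-type curcumin replicate 2, and the nearest array of that group was at 3.24. Without that wild-type array, the adjusted p of gcy-36 between ahr-1(ju145) and wild-type under DMSO was 0.2495, the lowest of all settings tried for it.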

How the results depend on the processing

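In no setting did any of the 7 genes pass an adjusted p of 0.1, and the lowest adjusted p was 0.121. Of 1186 differences of single genes refitted under alternatives, 1131 kept their sign and 55 changed it, all uncalled and at most 0.11 in size. With the replicate block, gcy-31 under curcumin was 0.0132, gcy-34 under curcumin -0.0116 and gcy-33 averaged over treatments 0.00113 (ahr-1(ju145) minus wild-type in each). With array weights, gcy-31 under curcumin was 0.0043, gcy-34 under curcumin -0.0234, gcy-37 under DMSO -0.0272 and the curcumin effect on gcy-37 in ahr-1(ju145) 0.00592. gcy-34 under curcumin was also -0.0391 with all 20 arrays, -0.0148 after quantile normalisation and -0.0022 after median centring, and gcy-35 averaged was -0.0125 after quantile normalisation.

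With 1 array left out, the following ran across 0. For ahr-1(ju145) minus wild-type under DMSO these were gcy-31 (-0.0876 to 0.0530), gcy-32 (-0.119 to 0.0121), gcy-33 (-0.175 to 0.0157) and gcy-37 (-0.0683 to 0.0587). Under curcumin they were gcy-31 (-0.0556 to 0.0541), gcy-33 (-0.0178 to 0.122) and gcy-34 (-0.109 to 0.0981). Averaged over treatments they were gcy-31 (-0.0498 to 0.0205), gcy-33 (-0.0742 to 0.0210) and gcy-35 (-0.0349 to 0.0503). For curcumin minus DMSO in ahr-1(ju145) they were gcy-31 (-0.00108 to 0.14), gcy-32 (-0.0712 to 0.0595), gcy-33 (-0.00354 to 0.15), gcy-35 (-0.16 to 0.00686), gcy-36 (-0.0118 to 0.0522) and gcy-37 (-0.0635 to 0.0795). In wild-type they were gcy-31 (-0.00222 to 0.11), gcy-33 (-0.14 to 0.0742) and gcy-36 (-0.13 to 0.00302). For the interaction it was gcy-31 (-0.0650 to 0.0840).

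In ahr-1(ju145) minus wild-type under curcumin, 0.553% of all probe sets were called, and of the 78 related genes 1 was called. That count was 2 with all 20 arrays or array weights, 0 with the compared groups alone, quantile normalisation, a trended and robust prior or a threshold of 0.05, and 0 to 2 with 1 array left out. Averaged over treatments 1 was called, against 2 with all 20 arrays or array weights, 3 with the replicate block, and 1 to 2 with 1 array left out. Under DMSO 0 were called, and 0 to 1 with 1 array left out (1 without wild-type curcumin replicate 5).

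The number of called probe sets in all ran between 141 and 931 under DMSO (530 as reported, 931 with the replicate block), between 41 and 368 under curcumin (162), between 933 and 1967 averaged (1438), between 3 and 67 for curcumin in ahr-1(ju145) (19), between 15 and 219 in wild-type (42), and between 0 and 1 for the interaction (0). The replicate block changed no call of the 7 genes. After a filter on the 25th percentile only gcy-31, gcy-34, gcy-35 and gcy-37 were left, so gcy-32, gcy-33 and gcy-36 have no value there. The causes of these shifts were not tested.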
